A study of Homo sapiens with 7 samples.

Results

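Histone H2A ubiquitylated at lysine K119 (ubK119) was compared between HT1080 cells in which small interfering RNA targeted the kinase VRK1 (siVRK1) and cells given a non-targeting RNA (siControl). HT1080 is a human fibrosarcoma cell line, and each ubK119 value comes from 1 chromatin immunoprecipitation library per siRNA. The series held 7 libraries: ubK119, H2A phosphorylated at threonine T120 (pT120) and unprecipitated input DNA under both siRNAs, and VRK1 under siControl alone. All cells were of the same line and received a transfected RNA, so untransfected cells are not part of the comparison. VRK1 was not profiled after siVRK1, and the extent of its depletion was therefore not tested here.

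The level of ubK119 was read in regions that had been called in other libraries, so that ubK119 itself did not choose them. These were regions called in either input and regions called with the VRK1 antibody, on chromosomes 1 to 22, with at most 100 reads in each input. Of 39487 regions in the lists of both inputs, 34403 were left when the longest of overlapping regions was kept, 34040 of them lay on chromosomes 1 to 22, and 33412 met the read limit. Of 17531 VRK1 regions, 17223 lay on these chromosomes and 16639 met the limit. A total of 5177 VRK1 regions overlapped an input region, and 11462 VRK1 regions overlapped none. The question was whether ubK119 differs after VRK1 knockdown, above all where VRK1 was bound.

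Ubiquitylation of H2A at K119 is placed by the RING1A and RING1B ligases of Polycomb repressive complex 1 and is removed by deubiquitylases such as BAP1. It is known as a mark of Polycomb-repressed chromatin. VRK1 is a nuclear serine/threonine kinase, and its target T120 is the residue next to K119 in the tail of H2A, so the modified residues are immediate neighbours.

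The siControl and siVRK1 ubK119 libraries held 40442678 and 29976107 reads, and the other 5 held between 20687386 and 36030913. Levels below are reads scaled by the library total (RPM), per kb of region where sets or regions are compared. A ratio is the siVRK1 level over the siControl level, and its 95% interval covers counting error only. The interval treats reads as independent, so reads that are PCR copies of the same molecule would make it too narrow. With 1 library a side there is no replicate check, and every difference below is one between libraries. The siVRK1 ubK119 library was first checked at 23650 regions that had been called in siControl ubK119 and overlapped no input region. There siVRK1 ubK119 stood at 1.445 times (1.435 to 1.455) the siVRK1 input, whereas siVRK1 pT120 stood at 0.845 times (0.839 to 0.851) it. Thus the library labelled siVRK1 ubK119, and not the one labelled siVRK1 pT120, was above input in control ubK119 regions. The siControl pT120 library stood at 1.046 times (1.037 to 1.056) its input there. At VRK1 and input regions siVRK1 pT120 was also below its input, at 0.528 and 0.415. The check therefore cannot settle whether the antibody labels of the siVRK1 libraries are right. In the control ubK119 regions ubK119 was lower after siVRK1, with 10643 RPM in siControl, 6466 RPM in siVRK1 and a ratio of 0.608 (0.604 to 0.611). Relative to its own input, siControl ubK119 stood at 2.59 (2.57 to 2.61) there. Those regions were chosen on siControl ubK119, which favours a lower value in the other library. The submitters' lists held 28955 ubK119 peaks for siControl and 13818 for siVRK1, and 6665 and 42461 pT120 peaks. These counts go opposite to the summed ratios given below. The lowest peak height was 15 and 18 reads for ubK119 and 12 for both pT120 lists. With libraries of unequal size, the calling limits were thus not equal.

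At VRK1 regions the level of ubK119 was higher in siVRK1 than in siControl cells. Summed over the 16639 regions, the siControl library gave 4867 RPM of ubK119 and the siVRK1 library 7617 RPM, or 1.01 and 1.58 RPM per kb. The ratio was 1.565 (1.555 to 1.574). The inputs differed far less over these regions, with a ratio of 1.11 (1.11 to 1.12), and pT120 differed in the other direction, with a ratio of 0.555 (0.551 to 0.560). Divided by its own input, ubK119 was 0.805 (0.799 to 0.810) in siControl and 1.13 (1.12 to 1.14) in siVRK1. In ubK119, VRK1 regions therefore lay below the input level in siControl and above it in siVRK1. For pT120 the order was reversed, with 1.06 (1.05 to 1.07) times its input in siControl and 0.528 (0.525 to 0.532) in siVRK1. Dividing the ubK119 ratio by the input ratio gave 1.405 (1.39 to 1.42).

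The difference was larger at VRK1 regions away from input regions than at those inside them. At the 11462 VRK1 regions outside input regions, ubK119 was 0.726 RPM per kb in siControl and 1.25 in siVRK1, a ratio of 1.715 (1.70 to 1.73). Relative to input it moved from 0.895 (0.885 to 0.904) to 1.30 (1.29 to 1.31). At the 5177 VRK1 regions inside input regions the levels were 1.40 and 2.04 RPM per kb, the ratio was 1.46 (1.45 to 1.47), and the level relative to input went from 0.751 to 1.02. The intervals of these ratios do not overlap, but the input ratio also differed between the classes, at 1.18 outside and 1.07 inside input regions. With the input ratio divided out, the values were 1.45 (1.43 to 1.47) outside and 1.36 (1.34 to 1.37) inside.

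Regions called in input DNA, which need not hold VRK1, also had more ubK119 in siVRK1. Over the 33412 regions ubK119 summed to 8049 RPM in siControl cells and 11856 RPM in siVRK1 cells, or 0.863 and 1.27 RPM per kb, a ratio of 1.47 (1.47 to 1.48). Input regions that overlapped a VRK1 region had a ratio of 1.43 (1.42 to 1.44), and those that overlapped none had 1.50 (1.49 to 1.51). The higher ubK119 was thus not limited to regions with VRK1, and within the input regions the ratio was slightly lower where VRK1 was called. Relative to its own input, ubK119 was at 0.569 (0.567 to 0.572) in siControl and 0.787 (0.784 to 0.790) in siVRK1. Values below 1 are favoured here because the inputs chose these regions. VRK1 was also below input in siControl, at 0.784, as was pT120, at 0.732 in siControl and 0.415 in siVRK1. The input ratio was 1.07 (1.06 to 1.07) and the pT120 ratio 0.605 (0.601 to 0.608). Scaling the libraries so that ubK119 summed over input regions is equal leaves a ratio of 1.06 at VRK1 regions.

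**Figure D1:**
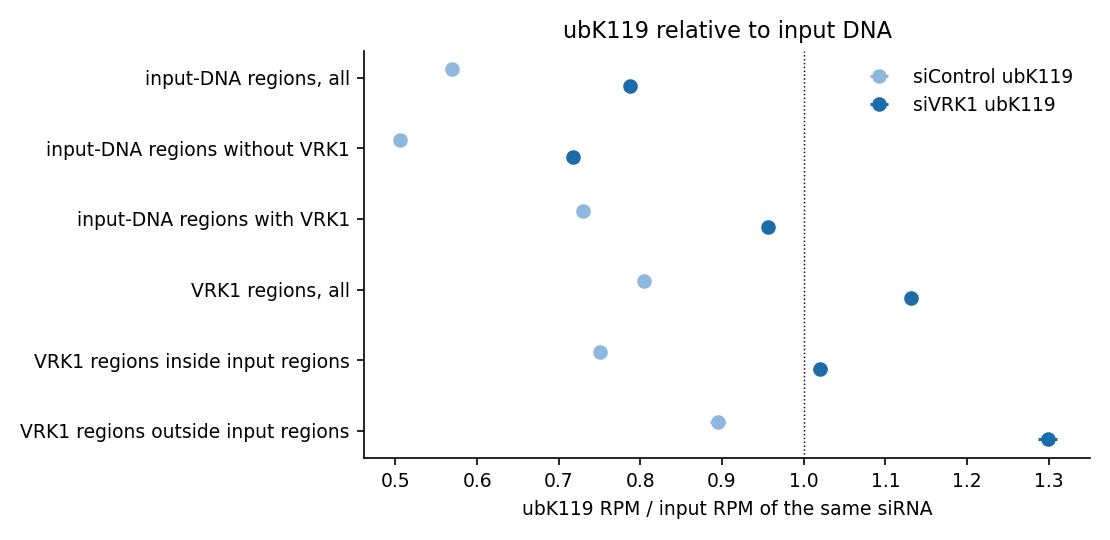
Level of ubK119 in RPM divided by the RPM of the input of the same siRNA (x axis), for 6 classes of regions in siControl (light) and siVRK1 (dark), with 95% counting intervals that are mostly smaller than the points. Each class lies further right in siVRK1, and VRK1 regions outside input regions go from 0.895 to 1.30.

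Each set held only a small share of the ubK119 reads. Input regions held 0.805% of the siControl and 1.19% of the siVRK1 ubK119 reads, and VRK1 regions held 0.487% and 0.762%. The comparison therefore says nothing of the rest of the genome, and a value scaled by the library total cannot show whether the total amount of ubK119 differed.

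Single regions mostly held few reads. The median input region had 7 ubK119 reads in siControl and 8 in siVRK1, and the median VRK1 region had 8 and 10. Regions with at least 20 ubK119 reads in both libraries together numbered 10234 input and 6926 VRK1 regions. Of these VRK1 regions, 2310 had at least 2-fold more ubK119 in siVRK1, which is 33.4%, and 167 had at least 2-fold less, which is 2.41%. The input libraries passed the same limits in 9.61% and 2.9% of the 5731 VRK1 regions with enough input reads. Among input regions, 3202 were at least 2-fold higher in ubK119 (31.3%) and 355 at least 2-fold lower (3.47%), beside 22.3% and 12.9% for the inputs themselves, whose own calls had chosen these regions. Most regions thus leaned to siVRK1 in ubK119, with a median ratio of 1.59 at VRK1 and 1.505 at input regions and a ratio above 1 in 80.2% and 77.0% of them. Among regions with at least 20 input reads, the input ratio was above 1 in 58.0% of VRK1 and 58.4% of input regions. After scaling to equal ubK119 over input regions, 13.1% of VRK1 regions were 2-fold higher and 8.75% 2-fold lower, and 12.1% and 10.8% of input regions. The shares in both directions lay much closer together after this scaling.

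By the share past 2-fold and by the median, the VRK1 regions outside input regions leaned furthest. Of 2954 with at least 20 reads, 42.3% were at least 2-fold higher in siVRK1 and 2.17% at least 2-fold lower, with a median of 1.76, against 26.7% and 2.59% and a median of 1.47 for the 3972 inside input regions. The inputs passed the same limits in 9.9% and 1.58% of the former and in 9.53% and 3.3% of the latter. The minimum of 20 ubK119 reads left out 8508 regions outside and 1205 inside input regions, and the share past 2-fold depends on read number. The share with a ubK119 interval above 1 hardly differed, at 31.8% outside and 31.95% inside. The pT120 reads went the other way. Of 400 VRK1 regions outside input regions with enough pT120 reads, 43.8% were at least 2-fold lower and 3.5% at least 2-fold higher, and of 2748 inside them 30.5% and 2.18%. Over all VRK1 regions these shares were 32.1% and 2.35%, and over input regions 27.7% and 5.18%. The 5th and 95th percentiles of the ubK119 ratio at VRK1 regions were 0.630 and 4.05, so a minority of regions had less ubK119 in siVRK1. At a limit of 1.5-fold, 53.7% of VRK1 regions were higher and 6.12% lower, and 50.1% and 7.62% of input regions. At 3-fold the shares were 12.9% and 0.78% of VRK1 and 11.8% and 0.86% of input regions. The excess of higher over lower regions was thus present at each of these limits. The interval of a single region's ubK119 ratio lay wholly above 1 in 2209 and wholly below 1 in 128 of the 6926 VRK1 regions, or 31.9% and 1.85%. The input interval did so in 6.61% and 2.5% of the 5731 VRK1 regions with enough input reads.

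**Figure D2:**
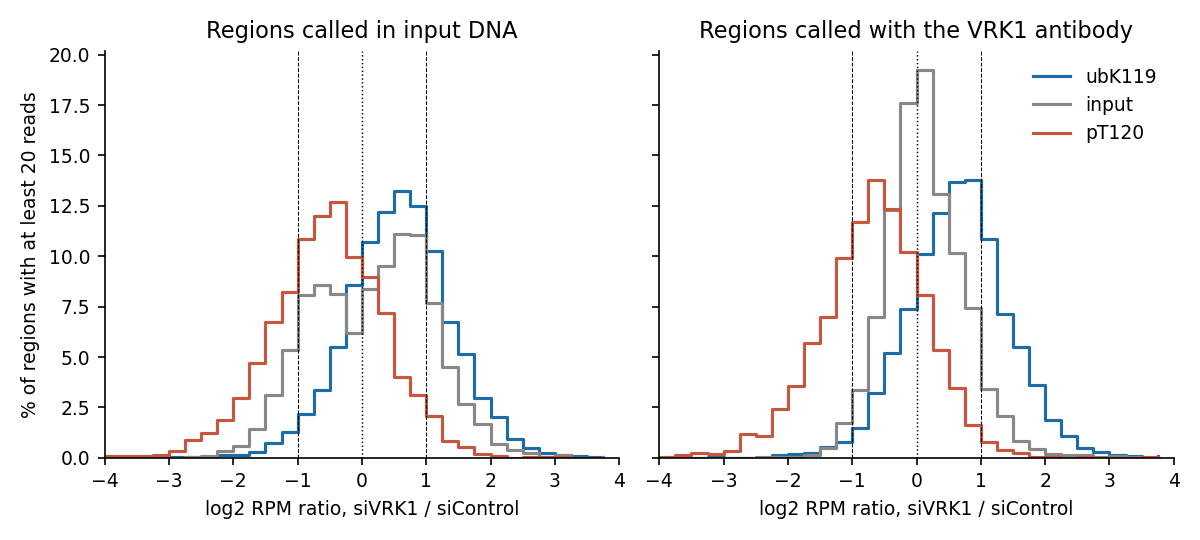
Distribution over single regions of the log2 ratio of siVRK1 to siControl RPM (x axis) as the percent of regions with at least 20 reads of that antibody or input (y axis), with dashed lines at 2-fold. The ubK119 curve (blue) lies mostly to the right of 0 in both panels, while pT120 (red) lies mostly to the left and the inputs (grey) straddle 0. The curves are drawn with 1 read added to each count. Without the added read, 33.4% of VRK1 regions are at least 2-fold higher in ubK119.

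The regions with the most ubK119 differed from one another in length and in input reads. They are given by their hg19 position, since no annotation of that build was used here. The highest was chr1:165721713-165721914 with 189 ubK119 reads in siControl and 484 in siVRK1, or 4.67 and 16.15 RPM, a ratio of 3.455 (2.91 to 4.11). The same region had 382 and 160 pT120 reads and 499 VRK1 reads, but only 23 and 5 input reads. Every antibody library was thus far above input there, and ubK119 and pT120 differed in opposite directions. In RPM, siVRK1 ubK119 (16.15) was near siControl pT120 (18.47), and siVRK1 pT120 (4.44) was near siControl ubK119 (4.67). A similar region on the same chromosome, chr1:191583281-191583481, had 135 and 305 ubK119 reads, a ratio of 3.05 (2.48 to 3.76), beside 226 and 104 pT120 reads. VRK1 reads there numbered 293, and input reads 14 and 7. Here too siVRK1 ubK119 (10.17 RPM) was near siControl pT120 (10.92), and siVRK1 pT120 (2.89) near siControl ubK119 (3.34). The longer regions named next did not share this, with siVRK1 ubK119 at 5.54 and siControl pT120 at 1.74 RPM in chr5:1167926-1168978. Whether the antibody labels have a part in these levels was not tested.

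The other regions rich in ubK119 were longer and had more input. The region chr5:1167926-1168978 had 88 and 166 ubK119 reads, 2.18 and 5.54 RPM, with a ratio of 2.545 (1.95 to 3.33), while the inputs had a ratio of 1.54. The VRK1 region chr17:21323009-21324851 had 113 and 197 ubK119 reads, a ratio of 2.35 (1.86 to 2.99), and 46 and 91 input reads. On chromosome 17 the input region chr17:21904548-21905077 had 99 and 144 ubK119 reads, a ratio of 1.96 (1.51 to 2.56), and 23 and 55 input reads. At these 3 regions the input was higher in siVRK1 as well, and its part in the ubK119 difference was not tested. On chromosome 18, chr18:8467408-8468819 had 114 and 138 ubK119 reads, with a ratio of 1.63 (1.265 to 2.11), and chr18:8544004-8545342 had 135 and 141, a ratio of 1.41 (1.105 to 1.798). The input ratios of this pair were 0.799 and 1.03. In all 7 of these places pT120 was lower in siVRK1, with ratios from 0.241 to 0.565 and intervals below 1. Among all regions with at least 20 pT120 reads the interval lay below 1 in 32.6% of VRK1 and 26.9% of input regions.

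Next the 12 VRK1 regions outside input regions with the most VRK1 reads were read, from 1.62 to 4.31 RPM of VRK1. ubK119 was higher in siVRK1 in all 12, with ratios from 1.04 to 4.12, and the interval lay above 1 in 6 of them. Over all VRK1 regions outside input regions with at least 20 reads, 84.0% had a ratio above 1 and 31.8% an interval above 1, so being higher was not particular to these 12. The region with the most VRK1, chr16:3124472-3124876, had 71 ubK119 reads in siControl and 140 in siVRK1, a ratio of 2.66 (1.99 to 3.59), and its pT120 reads numbered 111 and 53. The next, chr12:127861079-127861424, had 59 and 124 ubK119 reads, a ratio of 2.84 (2.06 to 3.935), and 116 and 42 pT120 reads. Both had 10 or fewer input reads per library, so ubK119 was well above input under both siRNAs. The highest of the 12 ratios was at chr2:177127313-177127525, with 18 and 55 ubK119 reads a ratio of 4.12 (2.38 to 7.46), and 31 and 12 pT120 reads. At chr19:513944-514797 ubK119 reads numbered 20 and 58, a ratio of 3.91 (2.32 to 6.87), and input reads 21 and 40. The remaining pair with intervals above 1 were chr3:84163934-84164139 with 20 and 36 ubK119 reads (2.43, 1.37 to 4.43) and chr5:1204803-1205556 with 47 and 85 (2.44, 1.69 to 3.56).

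In the other 6 of the 12 the ubK119 interval included 1. They were chr5:1227449-1228556, with 105 and 91 reads and a ratio of 1.17 (0.873 to 1.56), chr18:6526985-6527839, chr1:17031017-17031939, chr10:28944473-28944693, chr18:6256740-6257477 and chr17:43225892-43226376. The last had 53 VRK1 reads but only 4 and 6 ubK119 reads, so high VRK1 did not always come with ubK119. The pT120 ratio had an interval below 1 in 8 of the 12, beside 35% of all VRK1 regions outside input regions with at least 20 pT120 reads. When each ubK119 level was set against the input of its own siRNA, the intervals of the siControl and siVRK1 values overlapped in all 12 regions. At chr1:17031017-17031939 the siVRK1 value was the lower one, 1.97 against 2.26 in siControl, and at chr17:43225892-43226376 it was 0.317 against 0.3325. It was nearly equal at chr5:1227449-1228556, 2.66 against 2.59, and at chr18:6526985-6527839, 1.11 against 1.10.

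**Figure D3:**
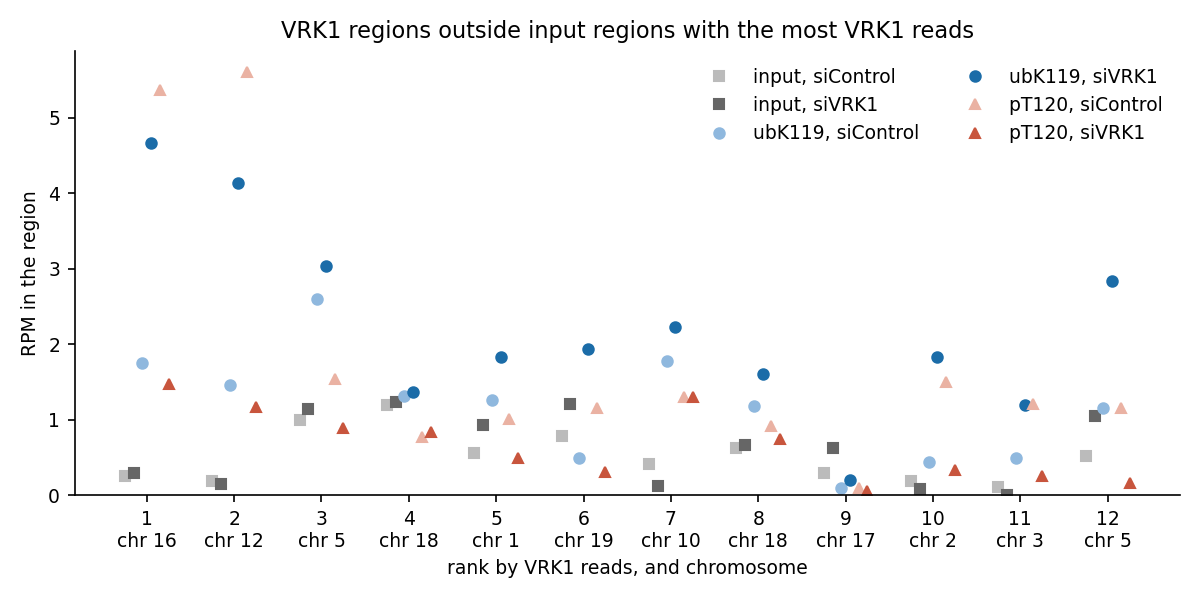
RPM (y axis, from 0) of input, ubK119 and pT120 under each siRNA in the 12 VRK1 regions outside input regions with the most VRK1 reads (x axis, in order of VRK1 reads, with the chromosome). ubK119 of siVRK1 (dark blue) is above that of siControl (light blue) in each region, from 1.04 to 4.12 times.

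The extremes of the ubK119 ratio are given as a description, since the ratio chose them from regions with at least 40 ubK119 reads. The highest ratios came from 8 distinct places and lay between 6.41 and 9.71. At chr13:114524708-114524932 ubK119 went from 5 to 36 reads, a ratio of 9.71 (3.80 to 31.7), with 3 and 18 input reads and 11 and 1 pT120 reads. At chr21:9700282-9700564 it went from 13 to 69 reads, with 23 and 43 input reads and 28 and 16 pT120 reads. The lowest ratios, again from 8 places, lay between 0.0686 and 0.300. At chr12:127650459-127650735 ubK119 went from 59 to 3 reads, with 9 and 19 input reads and 18 and 49 pT120 reads. At chr20:29650225-29650756 it went from 96 to 17 reads while pT120 went from 20 to 112, a pT120 ratio of 3.215 (1.99 to 5.465). The region with the most ubK119 reads in siControl, chr8:70602335-70602715, went from 214 to 44 reads, with 36 and 88 input reads and 54 and 149 pT120 reads. The pT120 ratio was below 1 in 8 of the 8 places with the highest ubK119 ratio, and above 1 in 7 of the 8 with the lowest. Its interval lay below 1 in 6 of the former and above 1 in 5 of the latter. Over all regions with at least 20 pT120 reads the pT120 ratio was above 1 in 21.8% of VRK1 and 29.1% of input regions, so a ratio below 1 was common. Its interval lay below 1 in 32.6% and 26.9% of them, and above 1 in 1.81% and 3.29%. Some of the named places had fewer than 20 pT120 reads, so these shares do not fully match them.

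Opposite differences of the marks were also seen across the regions as a whole. When regions were ranked by their pT120 ratio and cut into quintiles, that is 5 classes of equal size, which was done after these values had been seen, the ubK119 ratio was 2.17 (2.13 to 2.20) in the VRK1 regions with the lowest pT120 ratio. It was 1.87, 1.63 and 1.41 in the next quintiles and 1.14 (1.13 to 1.16) in those with the highest. Input regions gave 2.02, 1.72, 1.50, 1.30 and 1.07 in the same order. The ubK119 ratio thus stayed above 1 in each quintile. In the quintile with the highest pT120 ratio, the summed pT120 ratio was 1.31 in VRK1 and 1.66 in input regions. Most regions held few pT120 reads, so the ranking itself spreads the pT120 ratio. These values therefore cannot show that pT120 was higher in siVRK1 in that quintile. The input ratio also moved along these quintiles, from 1.33 down to 0.966 in VRK1 and from 1.36 down to 0.844 in input regions, and its part in the trend was not tested. Relative to the siVRK1 input, siVRK1 ubK119 was highest in VRK1 regions of the first quintile, at 1.30, and lowest in the last, at 1.02.

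Regions were also ranked by the ratio of the inputs, with 1 read added to each. Input reads per region were few, so the ranking itself spreads the input ratio, and the ranges of input and ubK119 cannot be compared. In VRK1 regions the ubK119 ratio was 1.415 (1.39 to 1.44) where the input ratio was lowest, at 0.563 over the quintile, and 1.86 (1.83 to 1.89) where the input ratio was highest, at 2.78. In input regions the ubK119 ratio went from 1.265 to 1.78 while the input ratio went from 0.300 to 3.84. The ubK119 ratio was above 1 in each quintile of both sets. In the middle quintile of VRK1 regions, whose input ratio was 1.135, the ubK119 ratio was 1.55 (1.53 to 1.57).

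The input regions were also split by the input in which they were called. Those called in both inputs, 3667 in number, had a ubK119 ratio of 1.35 (1.34 to 1.36) with an input ratio of 0.992. The 13013 called in the siControl input alone had 1.31 (1.30 to 1.32) and the 16732 called in the siVRK1 input alone had 1.69 (1.68 to 1.705). The inputs chose the last classes, with input ratios of 0.455 and 2.15, so that ubK119 relative to input went from 0.363 to 1.04 in the former and from 0.816 to 0.643 in the latter. A ubK119 level relative to input thus pointed in opposite directions in these classes, while the ubK119 ratio itself stayed above 1 in each.

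Where VRK1 was strong relative to input, the ubK119 ratio was higher. From the lowest to the highest quintile of VRK1 over the mean of the inputs, the ubK119 ratio at VRK1 regions was 1.38, 1.595, 1.72, 1.78 and 1.75, and at input regions it went from 1.35 (1.33 to 1.37) to 1.595 (1.58 to 1.61). The input ratio went from 0.998 to 1.34 over the quintiles of VRK1 regions and from 0.865 to 1.31 over those of input regions. With the input ratio divided out, the order turned: 1.385 in the lowest and 1.31 in the highest quintile of VRK1 regions, and 1.56 and 1.21 for input regions. Ranked by VRK1 reads alone, the VRK1 regions outside input regions had ratios from 1.62 (1.59 to 1.66) in the lowest to 1.75 (1.72 to 1.78) in the highest quintile. Regions that overlapped a siControl pT120 peak had a lower ubK119 ratio, 1.43 against 1.64 for VRK1 regions and 1.375 against 1.50 for input regions. Over quintiles of region length the ratio lay between 1.51 and 1.67 at VRK1 regions and between 1.42 and 1.54 at input regions.

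**Figure D4:**
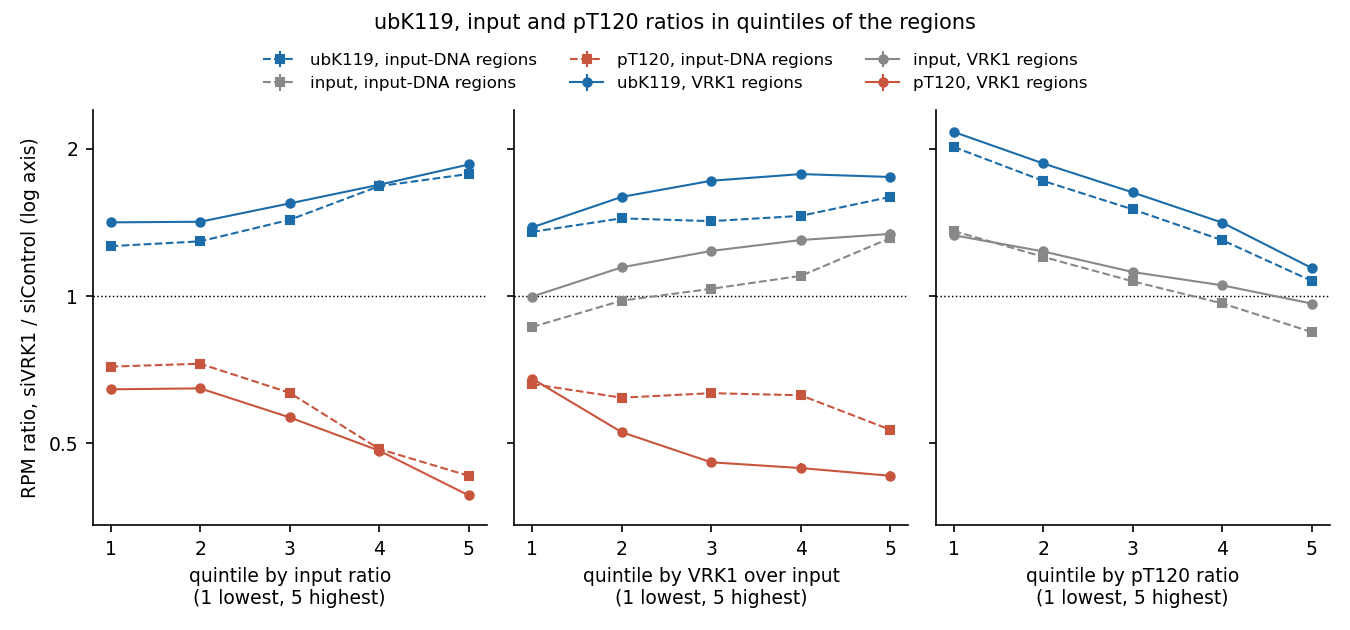
RPM ratio of siVRK1 to siControl (log axis) of ubK119, input and pT120 in quintiles of the input regions (dashed) and VRK1 regions (solid), ranked by the input ratio, by VRK1 over input, and by the pT120 ratio; the ratio used for ranking is not drawn. ubK119 is above 1 in each quintile and is lowest, at 1.07 and 1.14, in the quintile with the highest pT120 ratio.

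The submitters' own ubK119 peaks divide the regions by ubK119 itself and are given as a description. VRK1 regions that overlapped a ubK119 peak of both siRNAs, 1581 in number, had a ratio of 1.51, and the 12436 that overlapped none had 1.72. The 1592 with a siControl peak alone had 0.915 and the 1030 with a siVRK1 peak alone 2.66. A ubK119 ratio above 1 was thus also present in regions with no ubK119 peak in either library. Relative to input, ubK119 in those regions was 0.724 in siControl and 1.07 in siVRK1, so it lay below or near the input level.

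At input and VRK1 regions, every chromosome had a higher ubK119 level in siVRK1. The interval of the ratio lay above 1 on 22 of 22 chromosomes in both sets, and the pT120 interval lay below 1 on 22 of 22. At VRK1 regions the ratio went from 1.33 (1.32 to 1.35) on chromosome 18 and 1.46 (1.39 to 1.52) on chromosome 4 to 1.77 (1.70 to 1.84) on chromosome 19 and 1.82 (1.76 to 1.88) on chromosome 17. At input regions chromosome 18 was again lowest, at 1.22 (1.21 to 1.23), and chromosomes 19, 17 and 15 were highest, at 1.68, 1.75 and 1.84. Chromosome 15 rests on 111 input regions, and its interval of 1.64 to 2.06 overlaps that of its neighbours in this order. Chromosomes 17 and 19 also had high input ratios, 1.38 and 1.24 at VRK1 regions, and chromosome 17 had the lowest pT120 ratio, 0.403. Across the 22 chromosomes the ubK119 ratio went with the input ratio (Pearson's r of 0.658 at input and 0.493 at VRK1 regions, Spearman's rho of 0.714 and 0.442). It went against the pT120 ratio, with r of -0.832 and -0.704 and rho of -0.880 and -0.787. These describe 22 points that share the same libraries. With the input ratio divided out, the ubK119 ratio was still above 1 on 22 of 22 chromosomes, from 1.19 to 1.53 at input regions and from 1.24 to 1.71 at VRK1 regions.

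**Figure D5:**
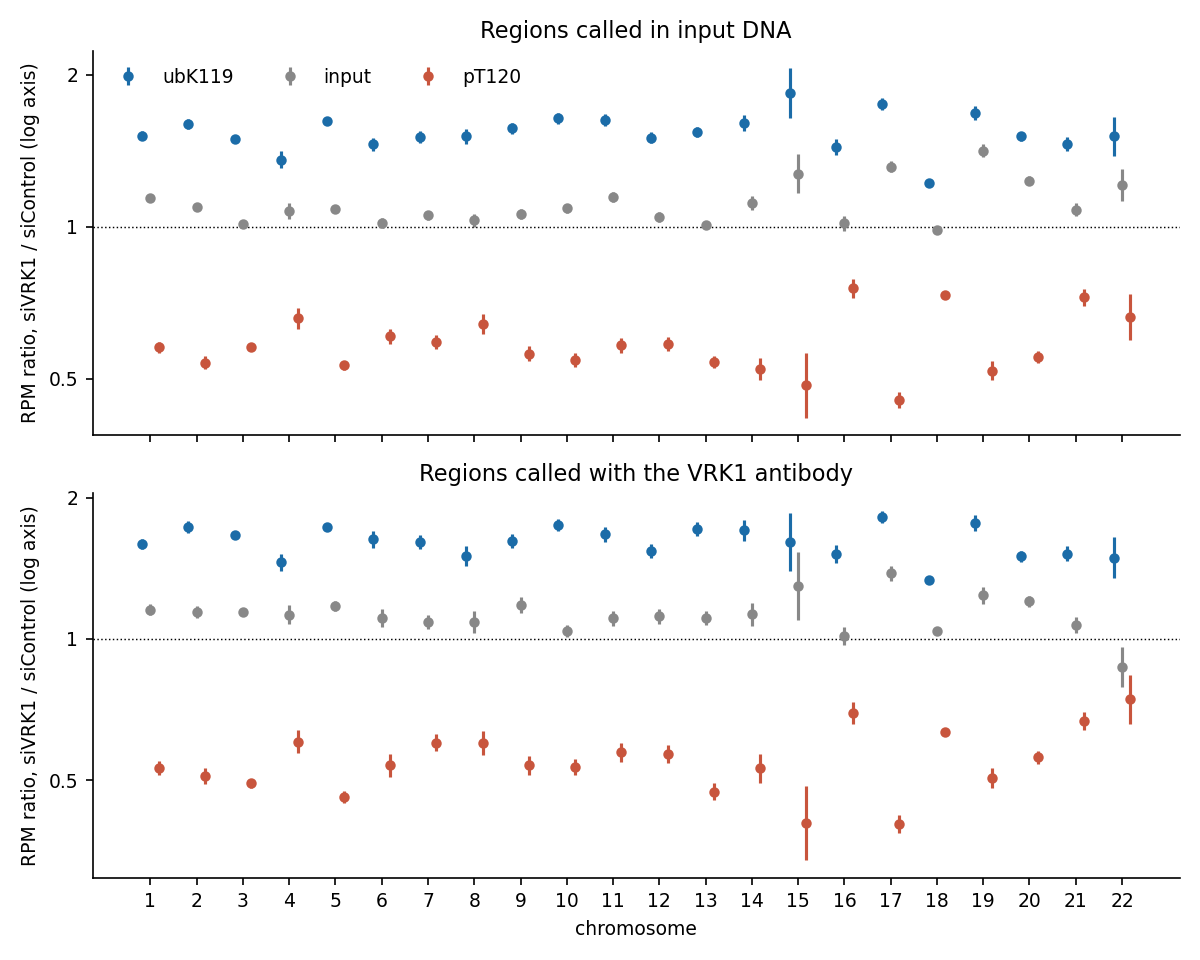
RPM ratio of siVRK1 to siControl (log axis) on each chromosome for ubK119, input and pT120, with 95% counting intervals, at input regions (upper) and VRK1 regions (lower). ubK119 is above 1 on 22 of 22 chromosomes and lowest on chromosome 18, and pT120 is below 1 on 22 of 22.

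Along the chromosomes the ratio varied more. In windows of 10 Mb with at least 20 regions, the ubK119 interval lay above 1 in 222 of 233 windows of input regions and in 158 of 161 windows of VRK1 regions. The only window with an interval below 1 was at 70 to 80 Mb of chromosome 8 among input regions, with a ratio of 0.748 (0.616 to 0.906) over 24 regions. It holds the region with 214 siControl ubK119 reads described above, and how far its ratio rests on that region was not tested. Among VRK1 regions the lowest windows were at 20 to 30 Mb of chromosome 19, with 1.01 (0.921 to 1.11), at 40 to 50 Mb of chromosome 5, with 1.09 (0.984 to 1.21), and at 30 to 40 Mb of chromosome 12, with 1.105 (1.03 to 1.19). The pT120 ratios of these windows were 0.998, 1.02 and 0.936. The highest windows of VRK1 regions were at 30 to 40 Mb of chromosome 2, with 2.53 (2.05 to 3.135), and at 30 to 40 Mb of chromosome 21, with 2.41 (1.97 to 2.94), and their pT120 ratios were 0.4255 and 0.467. The highest window of input regions, 2.92 at 160 to 170 Mb of chromosome 1, fell to 1.63 (1.19 to 2.22) without its region richest in ubK119.

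The limit on input reads left out 584 VRK1 and 628 input regions with 101 to 52660 reads in the larger input. VRK1 regions just inside it, with 81 to 100 reads in the larger input, had a ubK119 ratio of 1.47 (169 regions), and those just outside, with 101 to 120 reads, had 1.43 (116 regions). For input regions the values were 1.43 (220 regions) and 1.35 (117 regions). Over all regions beyond the limit the ratios were 1.36 and 1.355.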

How the data were processed

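Chromatin of fixed and sonicated HT1080 nuclei was immunoprecipitated, amplified by PCR and sequenced, per the labels' protocols. Tools in the submitters' processing notes, with no roles given, are Bowtie 0.12.8, CASAVA 1.8.2 and Partek, and the build is hg19. Not given in the sources used here are how peaks were called, how duplicate reads were handled and whether positions count from 0 or 1. Per the file headers, each deposited list holds the regions called in 1 library and, for all 7 libraries, the count of reads in each region, not normalized. The authors also deposited the peak height as a signal (extended reads) and as RPM, and, as a percent, how much of a region the peaks of other libraries cover. The library total is the height over its RPM, and counts were scaled to it.

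Ratios of summed RPM have exact conditional binomial 95% intervals. Ratios with the input ratio divided out have intervals from a normal approximation on the log scale, and shares have exact Clopper-Pearson intervals. Overlap meant at least 1 bp. Regions are not replicates, so no p-value is given. A level of 3 reads corresponded to 0.0742 RPM in siControl and 0.100 RPM in siVRK1 ubK119. Regions named are, per set, the 5 with the most ubK119 RPM, the 5 highest and 5 lowest ratios among those with at least 40 ubK119 reads, and the 12 VRK1 regions outside input regions with the most VRK1 reads. A place named in both sets was counted once. The members, classes and rules were chosen with earlier results of these data known. Gene lists were planned for an annotation of hg19. None was used here, so genes are not named. Python 3.11.15, pandas 2.3.3 and scipy 1.17.1 were used.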

Additional observations from a re-analysis of the deposited data

How the results depend on the processing

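The ubK119 ratio stayed above 1 under every alternative run. Of 45 alternatives over 6 results, 8 stayed within the counting interval, 36 moved beyond it and 1 turned. The one that turned was the ubK119 ratio over the input ratio at input regions: 0.952 for regions of the siVRK1 input list and 2.11 for those of the siControl input list, against 1.38 for both, as these lists were chosen by the inputs. The ubK119 ratio itself was 1.56 and 1.33 in these lists, with 33.7% and 22.75% of regions at least 2-fold higher.

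With no limit on input reads, the ubK119 ratio was 1.41 at input and 1.44 at VRK1 regions, and over the input ratio 1.41 and 1.45. With at most 50 input reads, the ratio was 1.49 and 1.59, and over the input ratio 1.40 at input regions. Medians over regions with 1 read added were 1.49 and 1.62, and over the input ratio 1.36 and 1.43. Without the 1% of VRK1 regions richest in ubK119 the ratio was 1.575. VRK1 regions outside and inside input regions gave 1.715 and 1.46, over the input ratio 1.45 and 1.36, and 42.3% and 26.7% at least 2-fold higher. Scaling to equal ubK119 over input regions gave a ratio of 1.06 at VRK1 regions, and 12.1% of input and 13.1% of VRK1 regions at least 2-fold higher. A minimum of 10 reads gave 35.2% and 38.3%, and one of 40 reads 21.8% and 24.8%.

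Leaving out chromosomes 3, 5 and 18, rich in regions, was chosen after the data were seen. The ratio was then 1.55 at input and 1.63 at VRK1 regions, over the input ratio 1.40 and 1.43, with 36.7% and 38.25% at least 2-fold higher. No paired analysis was possible because each condition had 1 library and the labels carry no replicate numbers. Leaving out a replicate was not possible for the same reason. Intervals cover counting error alone and leave out the spread between cultures or precipitations, which was not measured. Few reads per region limit single ratios: 9713 of the 16639 VRK1 regions had fewer than 20 ubK119 reads. Across regions the ubK119 ratio moved with the input ratio and against the pT120 ratio, and the cause was not tested.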

Other observations

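The first 10 Mb of the chromosomes were compared with the rest after their values were seen. Without chromosome 18, the 1823 VRK1 regions in these stretches had a ubK119 ratio of 1.82 (1.78 to 1.85), and the other 12681 had 1.62 (1.61 to 1.63). Input regions gave 1.72 (1.70 to 1.75) and 1.525 (1.52 to 1.53). The input ratio was also higher in the first 10 Mb, 1.27 against 1.12 at VRK1 regions, and pT120 was lower, 0.401 against 0.546. Chromosome 18 went the other way: its first 10 Mb alone held 1784 VRK1 regions with a ubK119 ratio of 1.32 (1.30 to 1.34), below the 1.41 (1.37 to 1.455) of its remaining 351. With chromosome 18 included, the first 10 Mb had the lower ubK119 ratio, 1.47 against 1.61 at VRK1 regions and 1.35 against 1.52 at input regions.

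The 1% of VRK1 regions with the most ubK119 RPM, summed over both libraries, had a lower ratio than the set as a whole. The values were 1.49 (1.45 to 1.52) and 1.565 (1.555 to 1.574). These 167 regions held 7.45% of the set's siControl and 7.07% of its siVRK1 ubK119 reads. At the other end, 158 VRK1 regions had no ubK119 read in siControl and 79 had none in siVRK1, and 7 had none in either.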
